A study of Arabidopsis thaliana with 48 samples.

Results

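A set of 47 genes was followed that stood high in short-day leaves of *Arabidopsis thaliana* plants lacking either SVP or FLC, and lower again in leaves of plants lacking both. The members were chosen on these data. In short-day leaves the group mean on the log2 scale had to be at least 1 (a doubling) above wild type in each single mutant, and at least 1 below the mean of both single mutants in the double mutant. Of 31004 genes in the table, 65 met these thresholds. The 18 members of the WRKY, JAZ, ERF, ZAT, CML, TCH, BT and RAV/TEM families among them were left out (9 ERF, 4 ZAT, 3 WRKY, 1 TCH and 1 BT gene), which left 47.

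FLC and SVP are MADS-domain transcription factors that repress flowering. They bind DNA alone or together as one complex, and their targets include the florigen gene *FT*, expressed in leaves, and *SOC1*, which acts at the apex. Plant leaves also hold a fast transcriptional response to touch, wounding, cold and microbial patterns. In it, calcium signals and kinase cascades raise, within minutes, transcripts for zinc finger and MYB transcription factors, RING ubiquitin ligases, enzymes that remove poly(A) tails and many small proteins without a known function. Several members of the set are of these kinds: CCCH zinc finger proteins (SZF1, CZF1), MYB factors (MYB51, MYB73, MYB77), RING ligases (ATL2, CNI1, RDUF2), CAF1 deadenylases (CAF1a, CAF1b) and a MAP kinase kinase (MKK9).

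The plants were Columbia with a functional *FRI*, an activator of *FLC*, in all 4 genotypes: FLC/svp (the *svp-41* allele, here the *svp* mutant), flc/SVP (the *flc-3* allele, here the *flc* mutant), flc/svp (both alleles, the double mutant) and FLC/SVP (wild type, WT). They grew for 2 weeks in short days (SDs), or for 2 weeks in SDs followed by 2 long days (LDs), and leaves and apices were taken 8 h after dawn. The labels of SD plants also mention 2 further short days, so the ages at harvest in SDs and LDs are not settled. Each of the 16 groups had 3 biological replicates, each hybridised to one AGRONOMICS1 tiling array, and every value below is a log2 expression value after robust multi-array averaging (RMA) unless it is called a change. A change is a difference of log2 values, mutant minus WT unless stated, and 3 arrays a group limit its precision.

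The arrays matched their labels. *FLC* lay between 5.09 and 5.86 in leaves of *flc* genotypes, against 8.40 to 9.29 in leaves with functional *FLC*, and *SVP* lay between 6.46 and 7.63 in leaves of *svp* genotypes, against 7.77 to 8.59 in leaves with functional *SVP*. In apices neither gene overlapped between mutant and functional alleles either. Of 8 leaf marker genes 7 were higher in every leaf array than in any apex array (YAB1 was higher in apices), and 4 of 10 shoot apex markers (*STM*, *KNAT1*, *KNAT2*, *KNAT6*) were higher in every apex array. The defining stem cell genes *WUS* and *CLV3* lay between 2.60 and 3.70 in both tissues and overlapped between them. The median of all genes lay between 4.27 and 4.38 on the 48 arrays. In bulk tissue fewer cells of a type and less RNA per cell cannot be told apart.

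Replicates of one group differed in these genes far more than in most genes. In double-mutant LD leaves, replicate 3 had a member median of 7.27, against 6.22 and 6.30 on the other arrays of that group, and 39 of the 47 genes were highest there. In *flc* SD leaves the medians were 8.41, 7.78 and 7.23, with 39 of the 47 genes highest in replicate 1. These arrays enter the results below, and counts that turn on the first of them are given without it.

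**Figure D1:**
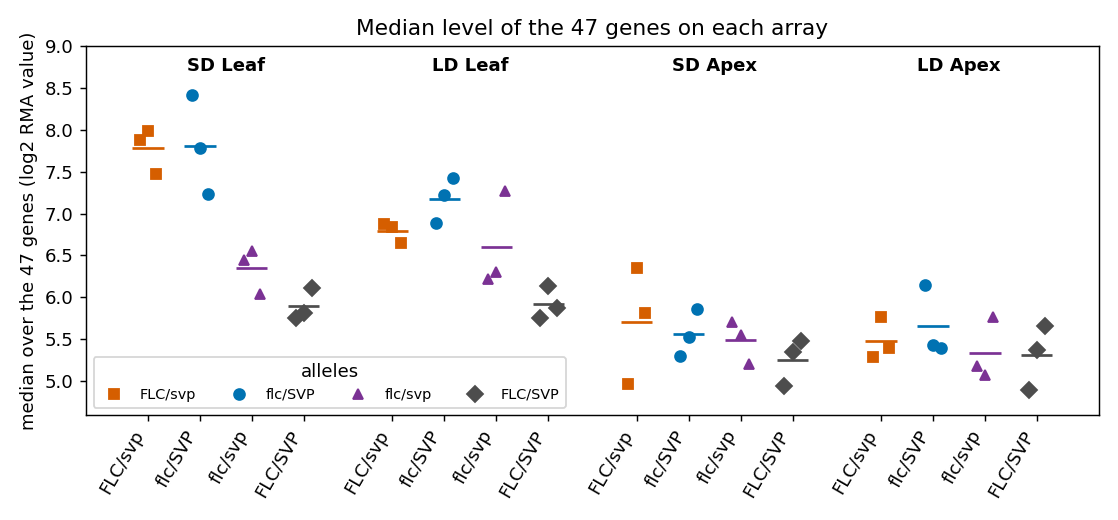
Median log2 RMA value over the 47 genes on each of the 48 arrays (vertical axis), with the 4 genotypes side by side within each tissue and day length (horizontal axis), with 1 point per array and lines at the mean of 3. In SD leaves the single-mutant arrays lie between 7.23 and 8.41, the double-mutant arrays between 6.04 and 6.56 and the WT arrays between 5.75 and 6.11, while apex arrays of all genotypes lie between 4.90 and 6.35.

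In SD leaves, which chose the genes, the members stood a median of 2.04 above WT in *svp* mutants and 1.76 above WT in *flc* mutants. In the double mutant the median was 0.34 above WT and 1.40 below the mean of the single mutants. The group median of the levels was 7.64 in *svp* mutants, 7.93 in *flc* mutants, 6.39 in double mutants and 5.89 in WT. Double-mutant means were still above WT for 38 genes and below WT for 9. These values are a description, because the rule used them.

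*PHI-1*, an EXORDIUM-like gene named for its induction by phosphate, stood furthest above WT on average over the single mutants. Its SD leaf values were 5.79, 5.94 and 8.16 in *svp* mutants, 5.99, 9.50 and 8.89 in *flc* mutants, 5.75, 5.43 and 7.49 in double mutants, and 3.95, 4.04 and 4.51 in WT. All 9 mutant arrays lay above all WT arrays, but double and single mutants overlapped.

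AT1G05575, which encodes an unknown protein, was next. It had 9.88, 9.64 and 8.84 in *svp* mutants, 10.60, 9.33 and 7.99 in *flc* mutants, 7.64, 7.88 and 6.27 in double mutants, and 6.63, 5.64 and 6.39 in WT. Single mutants lay above every double-mutant array, and replicate 3 of the double mutant lay within the WT range.

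Double-mutant means lay below WT for 9 genes, none of which was called lower than WT. These arrays chose the genes, so this position is described and not tested. AT4G27280 had the deepest position, 3.32 below the single-mutant mean. It read 10.27, 11.16 and 10.72 in *svp* mutants, 11.39, 10.71 and 10.40 in *flc* mutants, 7.70, 7.38 and 7.28 in double mutants, and 8.27, 8.01 and 8.75 in WT. The 4 genotypes fell into 3 separate ranges, with the double mutant lowest, by 0.89 in the mean against WT (change -0.89).

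*MYB77*, a MYB transcription factor gene, showed the same order. Its values were 8.57, 8.95 and 8.83 in *svp* mutants, 8.41, 8.55 and 7.82 in *flc* mutants, 5.99, 5.66 and 5.49 in double mutants, and 6.23, 6.14 and 6.64 in WT. *PBP1*, which encodes a calcium-binding partner of the PINOID kinase, was also lower in every double-mutant array (6.29, 6.23 and 5.11) than in any WT array (6.79, 6.57 and 7.11). The change against WT was -0.63 in *MYB77* and -0.95 in *PBP1*, neither was called, and this too is a description without a test.

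Other genes kept part of their height in the double mutant. AT4G32480, with a DUF506 domain, read 8.27, 8.58 and 8.82 in *svp* mutants, 8.47, 8.39 and 8.44 in *flc* mutants, 7.36, 7.25 and 7.41 in double mutants, and 5.39, 5.21 and 6.22 in WT. The double-mutant arrays lay between both other ranges, with no overlap. The VQ motif genes AT1G78410 and AT1G17147 also stayed above WT on every double-mutant array, by means of 1.59 and 1.28, but overlapped the single mutants. *CYP707A3*, which encodes an abscisic acid hydroxylase of the breakdown of that hormone, stood 2.94 above WT in *svp* mutants, 2.42 in *flc* mutants and 0.85 in double mutants.

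The next counts come from the SD leaf arrays that chose the genes, so they largely follow from the choice, and nothing is read from their distance to the shares of all genes. All 6 single-mutant arrays lay above all 3 WT arrays for 47 members in SD leaves (3.72% of all genes), and all 3 double-mutant arrays lay below all 6 single-mutant arrays for 35 (2.41% of all genes). A call below is a change beyond 1 on the log2 scale with a Benjamini-Hochberg adjusted p under 0.01 over all 31004 genes, in limma fitted across all arrays. By that rule the SD leaf calls, likewise set by the choice, were 38 members higher in *svp* mutants (0.793% of all genes), 36 higher in *flc* mutants (1.48%), 1 higher in double mutants, AT4G32480 (1.2%), and 28 lower in double mutants than in the single-mutant mean (0.248%). The 3 thresholds themselves were met by 0.21% of all genes. The plain order of group means (both single mutants above WT, the double mutant below both) held for all 47 members and for 11.2% of all genes.

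Membership near the thresholds was fine-grained. Just inside were *CZF1*, a CCCH zinc finger gene, whose double mutant lay 1.0033 below the single-mutant mean, AT3G09870, annotated as *SAUR48*, at 1.0054 above WT in *flc* mutants, and AT1G78410, whose double mutant lay 1.0141 below the single-mutant mean. Just outside were *ACS6*, AT5G46710 and *ZF2*, each short on 1 threshold at 0.9814, 0.9773 and 0.9749.

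LD leaves gave a look at the same genotypes on 12 other arrays, which took no part in choosing the genes. The fit's estimate of spread for each gene was nevertheless shared over all 48 arrays, the SD leaf arrays included. Of the 47 genes, 19 rose in *flc* mutants against 0.729% of all genes, 4 rose in *svp* mutants against 0.116%, and 2 rose in double mutants against 0.593%. Only 2 members were lower in the double mutant than in the single-mutant mean, against 0.0871% of all genes. Median changes were 0.73 in *svp* mutants, 1.20 in *flc* mutants and 0.55 in double mutants, where the median of all genes was within 0.02 of 0, and the double mutant lay a median of 0.47 below the single-mutant mean. The mutant comparisons share the 3 WT arrays.

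The 4 genes called in *svp* mutants were AT1G69480, AT4G32480, AT1G25400 and *ZCF37*, and all 4 were also among the 19 called in *flc* mutants. The remaining 28 members were called in neither single mutant. The change was larger in *flc* than in *svp* mutants for 44 of 47 genes in LD leaves, against 45.1% of all genes. The members move together from array to array, so 44 is not a count of independent genes, and the difference between *flc* and *svp* mutants was not tested. At an unadjusted p under 0.05, 25 members were higher in *svp* mutants, 32 in *flc* mutants and 15 in double mutants, and 15 were lower in double mutants than in the single-mutant mean. In either direction, 11.85%, 14.99%, 18.28% and 11.19% of all genes passed in these comparisons.

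**Figure D2:**
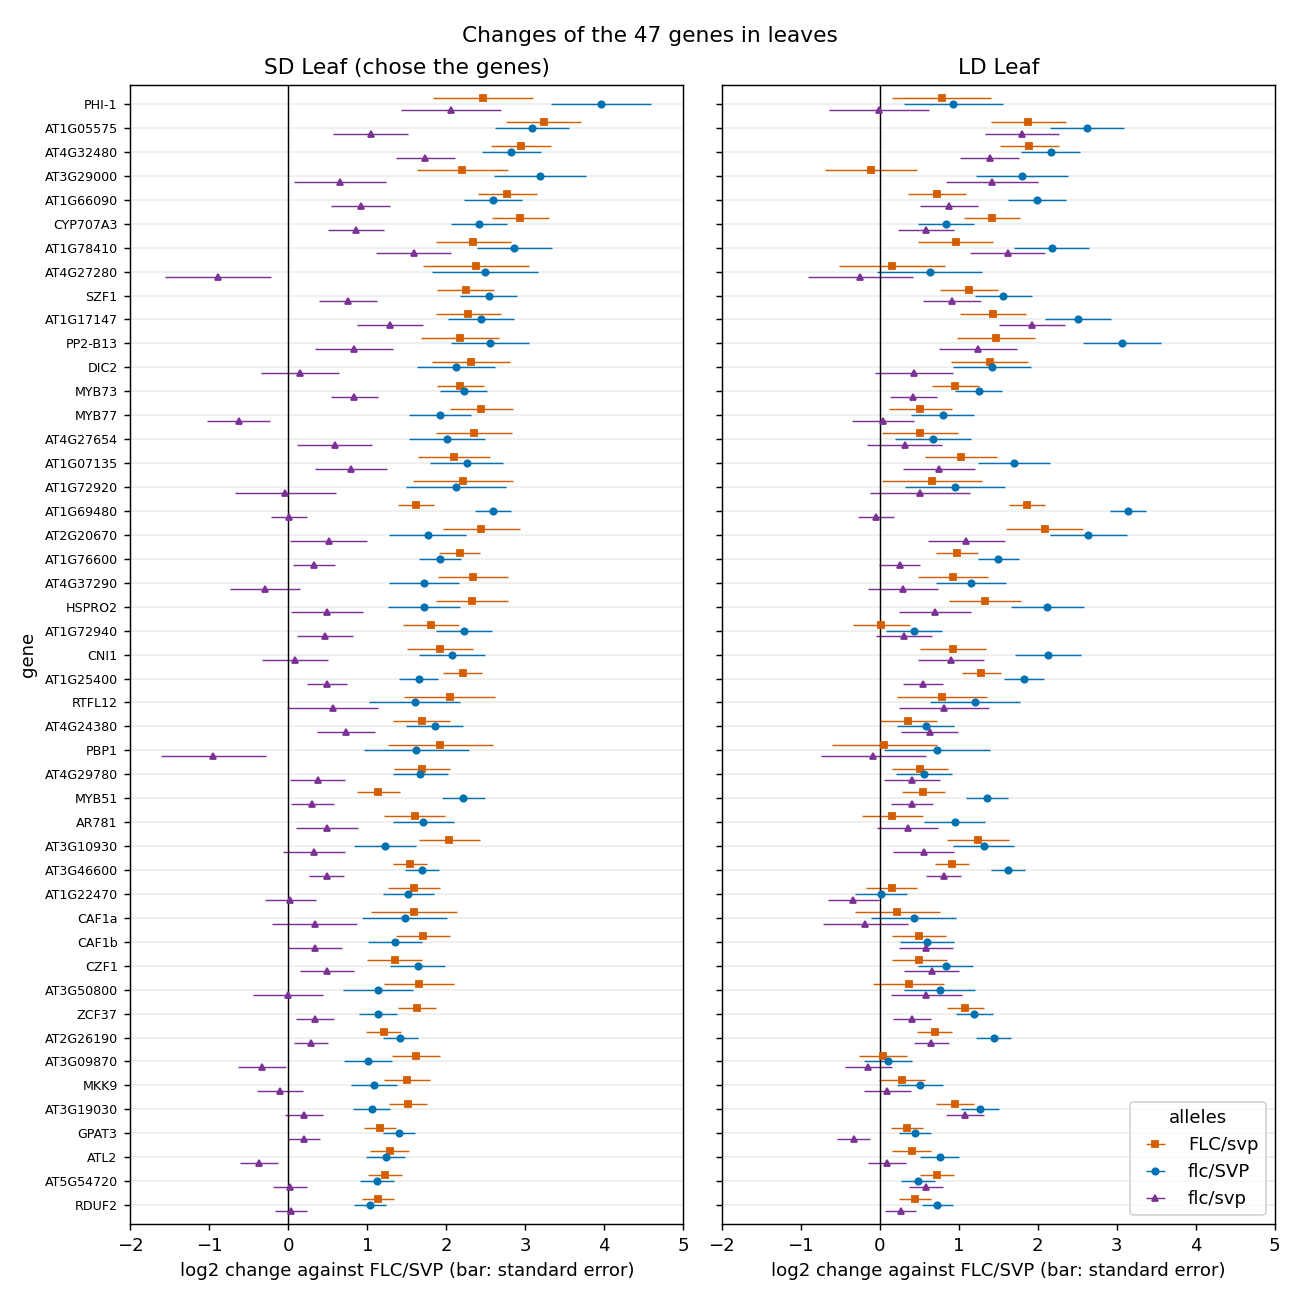
Log2 change against WT (horizontal axis) of each of the 47 genes (rows) in leaves, with its standard error, for FLC/svp (squares), flc/SVP (circles) and flc/svp (triangles). The left panel shows the SD leaves that chose the genes and the right panel the LD leaves, where the changes in *flc* mutants run from 0.02 to 3.14.

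AT1G69480, a gene of the EXS (ERD1/XPR1/SYG1) family of membrane proteins, carried the whole pattern in LD leaves. Its values were 4.20, 4.97 and 5.31 in *svp* mutants, 5.68, 6.41 and 6.24 in *flc* mutants, 3.01, 2.86 and 2.88 in double mutants, and 2.95, 3.04 and 2.90 in WT. Every single-mutant array lay above every double-mutant and WT array, and the double mutant overlapped WT. The double-mutant and WT values lay below the array medians of all genes (4.27 to 4.38). Whether they stood above background was not tested. The gene rose by 1.86 ± 0.23 in *svp* mutants (SE, limma adjusted p = 1.43e-06) and by 3.14 ± 0.23 in *flc* mutants (adjusted p = 1.58e-11). The double mutant was 2.55 ± 0.20 lower than the single-mutant mean on the log2 scale (change -2.55, limma adjusted p = 3.77e-11) and differed from WT by -0.04 ± 0.23 (adjusted p = 0.959). In SD leaves the same gene had 3.87, 5.27 and 4.45 in *svp* mutants, 6.07, 5.36 and 5.10 in *flc* mutants, 3.02, 2.76 and 3.00 in double mutants, and 2.92, 2.80 and 3.03 in WT.

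AT1G25400, an unknown protein gene, was the other member called lower in the double mutant in LD leaves. It read 8.06, 8.05 and 7.79 in *svp* mutants, 8.21, 8.65 and 8.66 in *flc* mutants, 7.05, 6.76 and 7.87 in double mutants, and 6.25, 6.98 and 6.81 in WT. Double-mutant replicate 3 overlapped the *svp* arrays, and the other double-mutant arrays lay within or near the WT range. The gene rose by 1.29 ± 0.25 in *svp* mutants (limma adjusted p = 2.41e-03) and by 1.83 ± 0.25 in *flc* mutants (adjusted p = 4.66e-06), and its double mutant changed by -1.01 ± 0.22 against the single-mutant mean (adjusted p = 5.31e-03). The last call was lost without any one of 6 of the mutant arrays. It was also lost in separate fits by tissue and with the SD leaf arrays left out of the fit.

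**Figure D3:**
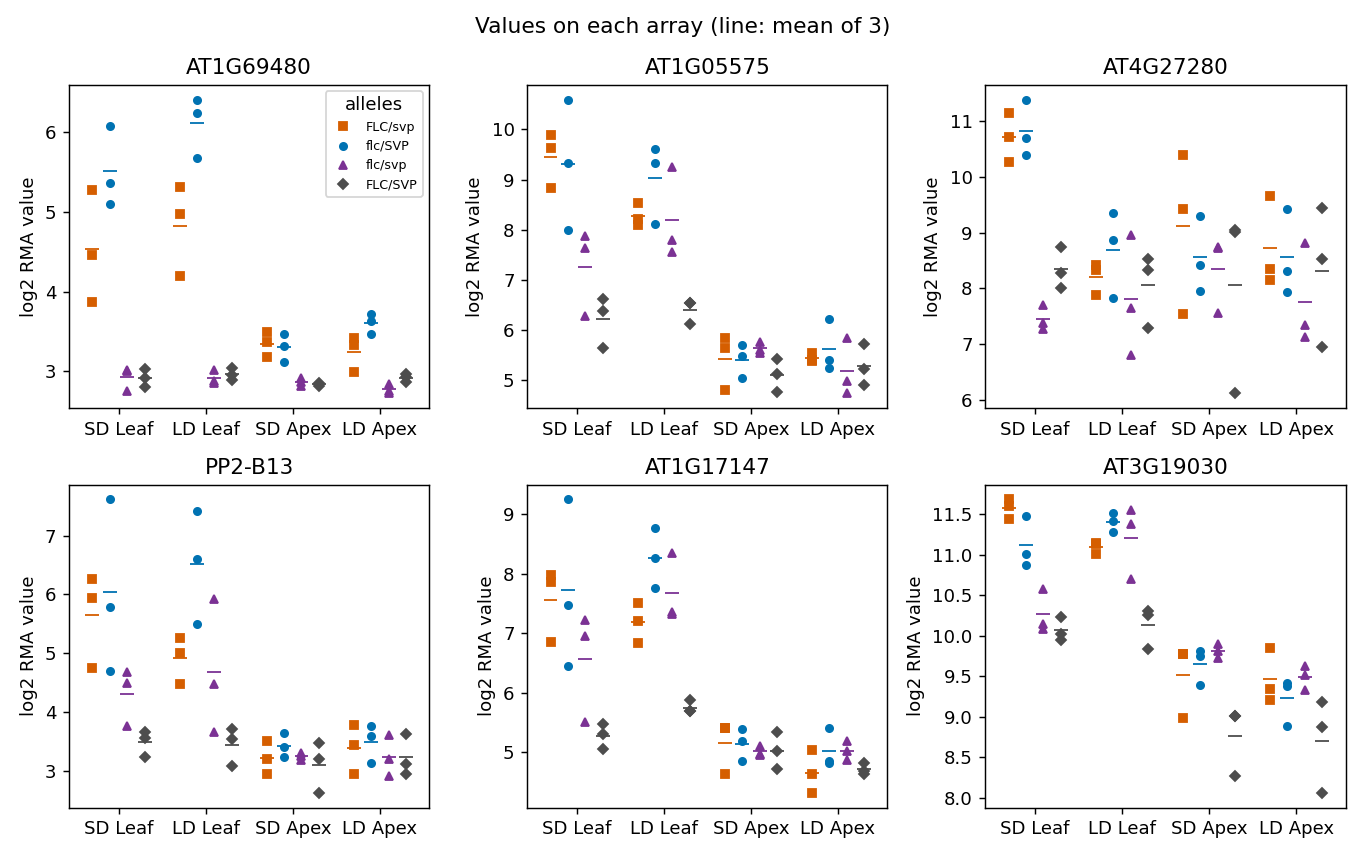
Log2 RMA value on each array (vertical axis; points are arrays, lines are means of 3) of AT1G69480, AT1G05575, AT4G27280, *PP2-B13*, AT1G17147 and AT3G19030 in the 4 genotypes within each tissue and day length (horizontal axis). AT1G69480 in LD leaves lies between 4.20 and 6.41 in single mutants and between 2.86 and 3.04 in double mutants and WT, whereas AT3G19030 in LD leaves is above WT in all 3 mutants.

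The largest other rises in *flc* LD leaves were in *PP2-B13*, a phloem lectin family gene, AT2G20670, with a DUF506 domain, AT1G05575 and AT1G17147. *PP2-B13* read 5.01, 4.48 and 5.26 in *svp* mutants, 5.50, 6.61 and 7.42 in *flc* mutants, 3.67, 4.48 and 5.92 in double mutants, and 3.71, 3.55 and 3.09 in WT. All *flc* arrays exceeded all WT arrays, and the change was 3.07 ± 0.49 (limma adjusted p = 5.66e-05). The double mutant spanned the distance between WT and *flc*, with replicate 3 on top.

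AT2G20670 had 9.66, 10.32 and 10.48 in *svp* mutants, 10.52, 10.82 and 10.77 in *flc* mutants, 8.87 to 9.62 in double mutants, and 6.17, 8.93 and 9.10 in WT. WT replicate 1 was far below the other WT arrays. The rise in *flc* mutants was 2.64 ± 0.49 (limma adjusted p = 3.73e-04), and this call was lost without WT replicate 1.

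AT1G05575 had 8.09, 8.21 and 8.54 in *svp* mutants, 8.12, 9.34 and 9.62 in *flc* mutants, 7.56, 7.81 and 9.24 in double mutants, and 6.13, 6.54 and 6.54 in WT. All 9 mutant arrays lay above WT, and the double mutant overlapped both single mutants. It rose by 2.62 ± 0.47 in *flc* mutants (limma adjusted p = 2.66e-04). In *svp* mutants its change was 1.88 ± 0.47 (adjusted p = 0.0282) and in double mutants 1.80 ± 0.47 (adjusted p = 0.0130), neither of which passed.

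AT4G32480 rose in both single mutants. It read 6.90, 7.99 and 8.07 in *svp* mutants, 7.62, 7.87 and 8.28 in *flc* mutants, 6.65, 7.01 and 7.80 in double mutants, and 4.91, 6.17 and 6.21 in WT. All 9 mutant arrays lay above WT, and the rise was 1.89 ± 0.37 in *svp* mutants (limma adjusted p = 2.93e-03) and 2.16 ± 0.37 in *flc* mutants (adjusted p = 1.55e-04). The call in *svp* mutants was lost without the replicate block, without WT replicate 1, and without *svp* replicate 2 or 3. *ZCF37* rose by 1.08 ± 0.24 in *svp* mutants (adjusted p = 9.17e-03), just past both thresholds, and this call was lost in 8 of 18 alternatives.

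AT1G76600, an unknown protein gene, and the VQ motif gene AT1G78410 also rose in *flc* LD leaves. AT1G76600 had 6.87, 6.87 and 6.65 in *svp* mutants, 7.21, 7.37 and 7.38 in *flc* mutants, 5.85, 5.77 and 6.59 in double mutants, and 5.68, 5.99 and 5.78 in WT. Its double-mutant arrays lay below every single-mutant array, and its rise in *flc* mutants passed (SE of the log2 change 0.26, limma adjusted p = 1.75e-04). The double mutant changed by -0.99 against the single-mutant mean (adjusted p = 0.0109), just short of both thresholds. AT1G78410 rose by 2.18 ± 0.47 in *flc* mutants (adjusted p = 2.61e-03).

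The members that rose in the double mutant in LD leaves had double-mutant means close to the single-mutant mean. AT1G17147, a VQ motif gene, had 7.21, 6.84 and 7.51 in *svp* mutants, 7.76, 8.26 and 8.77 in *flc* mutants, 7.36, 7.32 and 8.34 in double mutants, and 5.69, 5.88 and 5.69 in WT. All mutant arrays lay above WT, and it rose by 2.51 ± 0.42 in *flc* mutants (limma adjusted p = 8.85e-05) and by 1.92 ± 0.42 in double mutants (adjusted p = 2.22e-03). AT3G19030, an unknown protein gene, had 11.13, 11.14 and 11.00 in *svp* mutants, 11.41, 11.28 and 11.52 in *flc* mutants, 11.38, 10.70 and 11.55 in double mutants, and 10.25, 10.31 and 9.84 in WT. Its rise was 1.27 ± 0.24 in *flc* mutants (adjusted p = 5.07e-04) and 1.07 ± 0.24 in double mutants (adjusted p = 2.94e-03). Against the single-mutant mean the double mutant changed by -0.05 in AT1G17147 (adjusted p = 0.980) and by -0.04 in AT3G19030 (adjusted p = 0.975).

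Replicate 3 of the double mutant weighed on these counts. Without it, no member was called higher in double-mutant than in WT LD leaves by limma (6 at an unadjusted p under 0.05), and 4 were called lower than the single-mutant mean. The family genes left out of the set moved the same way on that array, with a median of 7.23 against 6.14 and 5.99 on the other double-mutant arrays. What set this array apart was not tested.

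Array by array, all 6 single-mutant arrays lay above all 3 WT arrays in LD leaves for 29 of 47 members, against 2.4% of all genes. All 3 double-mutant arrays lay below all 6 single-mutant arrays for 4 members, AT1G69480, AT2G20670, AT1G76600 and *GPAT3*, against 1.58% of all genes. The 3 thresholds of the rule were met again in LD leaves by 5 members (*PP2-B13*, AT1G69480, AT2G20670, *HSPRO2* and AT1G25400), against 0.0387% of all genes, which was 12 genes in the table. The plain order of group means held for 34 members and for 12.3% of all genes.

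Among the 28 members called in neither single mutant in LD leaves, changes in *flc* mutants ran from 0.02 (AT1G22470) to 1.81 (AT3G29000). *DIC2*, a mitochondrial dicarboxylate carrier gene, had 8.83, 8.57 and 8.33 in *svp* mutants, 8.02, 8.75 and 9.06 in *flc* mutants, 7.02, 7.35 and 8.49 in double mutants, and 7.16, 7.45 and 6.95 in WT. Its single mutants lay above WT without overlap, but the change in *flc* mutants, 1.42 ± 0.49, did not pass (limma adjusted p = 0.0993). The deadenylase genes *CAF1a* and *CAF1b* had changes of 0.43 and 0.60 in *flc* mutants, and *PHI-1*, the furthest above WT in SD leaves, had 0.93 ± 0.63 (adjusted p = 0.556).

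By role, the 6 transcription factor genes of the set included 4 that rose in *flc* LD leaves. *MYB51*, an activator of indole glucosinolate synthesis, had 5.28, 5.35 and 5.48 in *svp* mutants, 5.90, 6.08 and 6.54 in *flc* mutants, 5.01, 4.96 and 5.71 in double mutants, and 4.78, 4.89 and 4.79 in WT. Its rise of 1.36 ± 0.27 in *flc* mutants passed (limma adjusted p = 9.62e-04), with no overlap between *flc* and WT arrays. The GRAS factor gene AT3G46600 rose by 1.62 ± 0.22 (adjusted p = 3.86e-06), *SZF1*, a CCCH zinc finger gene named for salt induction, by 1.56 ± 0.36 (adjusted p = 5.58e-03), and *MYB73* by 1.25 ± 0.30 (adjusted p = 6.17e-03). The call was lost in 6 of 19 alternatives for *MYB73*, in 4 for *SZF1* and in 2 for *MYB51*. *CZF1* and *MYB77* had changes of 0.83 and 0.79 and did not pass.

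Of 3 RING ubiquitin ligase genes, *CNI1* (*ATL31*), known from the carbon and nitrogen response of seedlings, rose in *flc* LD leaves. It read 7.22, 6.35 and 6.66 in *svp* mutants, 7.47, 7.95 and 8.44 in *flc* mutants, 6.22, 6.23 and 7.74 in double mutants, and 5.90, 6.02 and 5.55 in WT, a rise of 2.13 ± 0.42 in *flc* mutants (limma adjusted p = 8.59e-04). *ATL2* and *RDUF2* had changes of 0.76 and 0.73 there and did not pass. Of 3 members on the calcium list, built from annotated descriptions, the calmodulin-binding gene AT2G26190 rose by 1.44 ± 0.22 in *flc* mutants (adjusted p = 2.94e-05). The EF-hand gene AT3G29000, kept because no source used here names it a CML gene (other annotations may), had a change of 1.81 (adjusted p = 0.0671), and *PBP1* one of 0.72 (adjusted p = 0.708), and neither passed.

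The list of immune receptor and signalling genes held 1 member. AT1G66090, a TIR-NBS gene of the disease resistance class, rose by 1.99 ± 0.37 in *flc* LD leaves (limma adjusted p = 4.36e-04), with 5.68, 6.31 and 6.82 in *flc* mutants against 4.29, 4.50 and 4.05 in WT. Outside that list, AT1G72940, annotated with a TIR domain, had a change of 0.43 (adjusted p = 0.664). *HSPRO2*, the counterpart of a sugar beet nematode resistance gene, rose by 2.12 ± 0.46 (adjusted p = 2.37e-03). The kinase gene *MKK9* (0.51) and the hormone genes *CYP707A3* (0.84) and AT3G09870 (0.10) did not pass in *flc* LD leaves. Of the 47 genes, 16 stood on one of these role lists and 31 on none, and no member stood on the lists of cell wall enzymes, phosphatases or exocytosis genes.

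Between day lengths, the height of the single mutants was smaller in LD than in SD leaves in the median. The median LD value minus SD value over the 47 genes was -1.16 in *svp* leaves (45 genes below 0), -0.65 in *flc* leaves (35 below 0), 0.23 in double-mutant leaves (15 below 0) and 0.07 in WT leaves (18 below 0). The SD arrays chose the genes, so these values are given side by side with no test. The lowest LD minus SD differences in *svp* leaves were -2.65 in AT4G27654, an unknown protein gene, -2.51 in AT4G27280 and -2.47 in AT1G72920. In *flc* leaves the lowest was -2.55 in *PHI-1*. *MYB77* and AT4G27280, which lay below WT in the double mutant in SD leaves, had LD changes in the double mutant of 0.04 and -0.25 (limma adjusted p = 0.979 and 0.911).

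**Figure D4:**
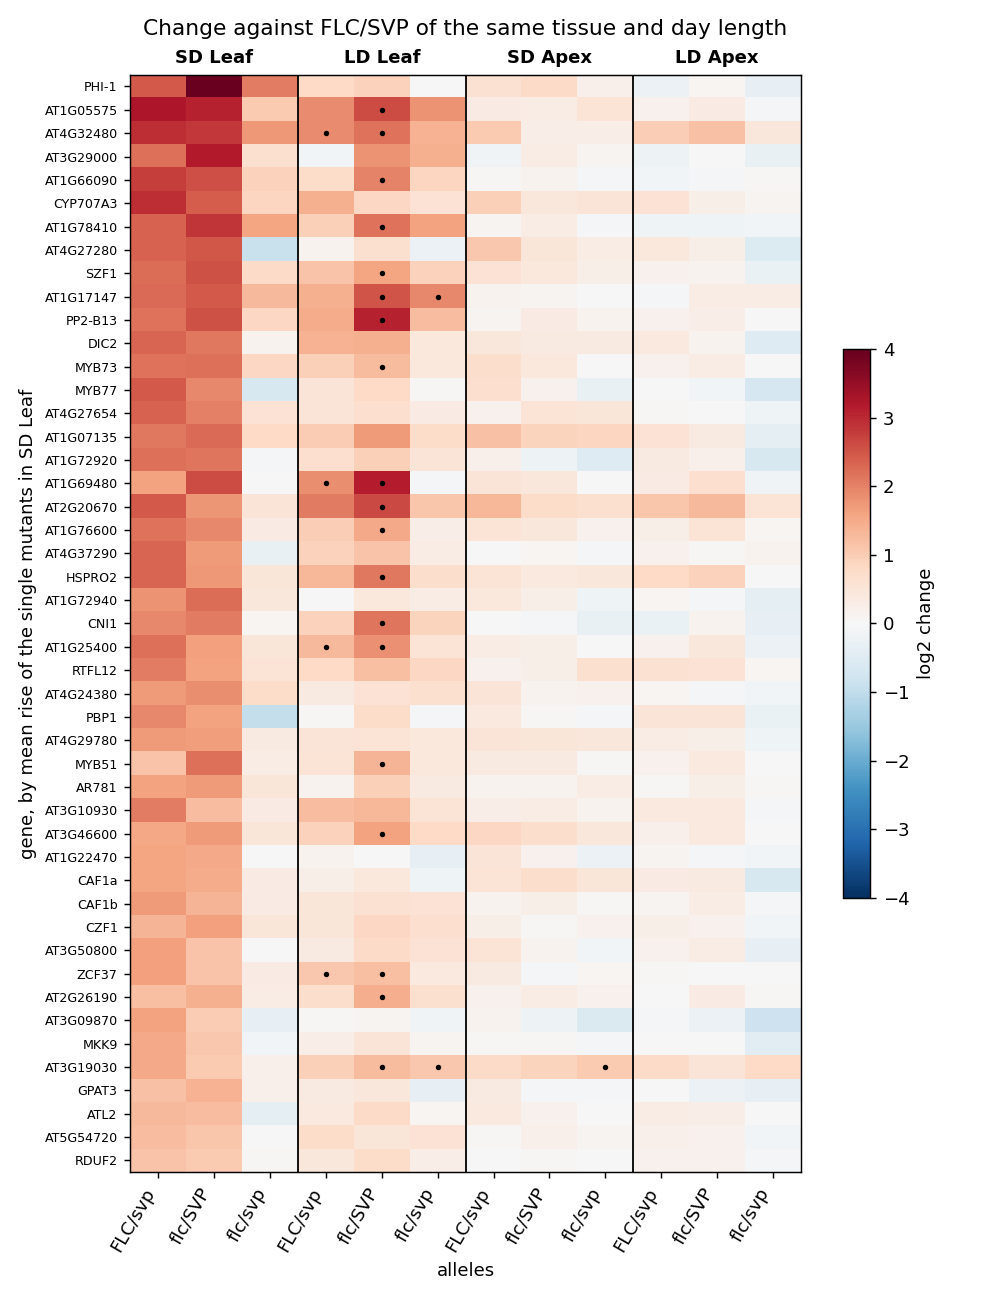
Log2 change against WT of the same tissue and day length (colour) of each of the 47 genes (rows) in the 3 mutants within SD leaves, LD leaves, SD apices and LD apices (columns). Dots mark calls (change beyond 1, adjusted p under 0.01), shown only outside the SD leaves that chose the genes, and 28 of the 47 rows have none.

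In apices the median shifts were small, and almost nothing was called. The single mutants leaned above WT, as in leaves. The double mutant had a median above WT in SD apices but below it in LD apices. In SD apices no member was called by limma in *svp* mutants (0.0452% of all genes) or in *flc* mutants (0.029%), 1 was called in double mutants (0.168%), and none was lower in the double mutant than in the single-mutant mean (0.0194%). In LD apices no member was called in *svp* mutants (0.0226%), *flc* mutants (0.0419%) or double mutants (0.11%), or below the single-mutant mean (0.0194%). At an unadjusted p under 0.05, 9, 3 and 2 members were higher in *svp*, *flc* and double-mutant SD apices, and 5 were lower than the single-mutant mean, where 10.97%, 10.29%, 13.84% and 9.334% of all genes passed in either direction. In LD apices 3, 6 and 1 were higher in these genotypes, 1 was lower in double mutants than in WT, and 6 were lower than the single-mutant mean, where 9.56%, 6.796%, 13.25% and 7.27% of all genes passed.

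The median changes in SD apices were 0.35 in *svp* mutants, 0.28 in *flc* mutants and 0.11 in double mutants, and in LD apices 0.18, 0.24 and -0.11 in the same order. Changes were above 0 for 45 members in *svp* and 42 in *flc* SD apices (50.02% and 52.13% of all genes). In LD apices they were above 0 for 38 in each of these mutants (49.19% and 48.47%). Double-mutant changes were above 0 for 29 members in SD apices and 14 in LD apices (49.84% and 50.42% of all genes). The other 33 double-mutant changes in LD apices were below 0. The double mutant lay below the single-mutant mean for 39 members in SD apices and 42 in LD apices. Of all genes, 48.42% and 51.55% lay above that mean. As the members move together, these are not counts of independent genes. The widest was AT2G20670, at 1.34 ± 0.49 in *svp* SD apices (limma adjusted p = 0.224) and 1.30 ± 0.49 in *flc* LD apices (adjusted p = 0.502).

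The member called in SD apices was AT3G19030. Its values were 8.98, 9.77 and 9.78 in *svp* mutants, 9.39, 9.75 and 9.81 in *flc* mutants, 9.73, 9.81 and 9.90 in double mutants, and 8.26, 9.01 and 9.01 in WT. The double mutant was above WT without overlap, by 1.05 ± 0.24 (limma adjusted p = 6.90e-03), a call lost without any one of 5 of the 6 arrays compared. This call was also lost in separate fits by tissue and with the SD leaf arrays left out of the fit.

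AT1G69480 had the same order of arrays at the apex on a smaller scale, without passing the test. In SD apices it had 3.18, 3.49 and 3.37 in *svp* mutants, 3.32, 3.47 and 3.12 in *flc* mutants, 2.81, 2.92 and 2.87 in double mutants, and 2.85, 2.84 and 2.82 in WT. In LD apices it had 2.99, 3.41 and 3.33 in *svp* mutants, 3.63, 3.72 and 3.47 in *flc* mutants, 2.84, 2.73 and 2.75 in double mutants, and 2.92, 2.97 and 2.87 in WT. In both, single-mutant arrays lay above all double-mutant and WT arrays, but no change passed either threshold. The changes against WT were 0.51 in *svp* and 0.47 in *flc* SD apices (limma adjusted p = 0.388 and 0.483) and 0.32 in *svp* and 0.69 in *flc* LD apices (adjusted p = 0.748 and 0.343). The double mutant changed against the single-mutant mean by -0.46 in SD apices (adjusted p = 0.451) and by -0.65 in LD apices (adjusted p = 0.228).

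All 6 single-mutant arrays lay above WT for 2 members in SD apices (AT1G69480 and AT3G46600, against 2.16% of all genes) and for 1 in LD apices (AT1G69480, against 1.45%). All double-mutant arrays lay below all single-mutant arrays for 1 member in SD apices (AT1G69480, 1.82% of all genes) and 2 in LD apices (AT1G69480 and AT3G09870, 1.34%). No gene of the table met the 3 thresholds of the rule in SD apices (0%) or LD apices (0%). The plain order of group means held for 29 members in SD apices (15.1% of all genes) and for 29 in LD apices (11.5%).

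The difference between leaf and apex was tested in LDs, where neither tissue had chosen the genes. The change in *flc* mutants differed between LD leaves and LD apices for 1 member (0.0613% of all genes) and the double mutant against the single-mutant mean for 1 (0.0226%). In *svp* mutants and double mutants no member differed by limma (0.0194% and 0.203% of all genes). At an unadjusted p under 0.05, 7, 19 and 9 members differed in *svp*, *flc* and double mutants, and 4 against the single-mutant mean. Of all genes, 6.115%, 7.483%, 9.857% and 6.28% passed in these comparisons. Both calls were AT1G69480. Its change in *flc* mutants was 2.46 ± 0.32 larger in leaves than in apices (limma adjusted p = 9.87e-05), and the double mutant lay further below the single-mutant mean in leaves (difference -1.90 ± 0.28, adjusted p = 5.88e-04).

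In WT alone, 3 members were higher in LD leaves than in LD apices, where 10.3% of all genes differed in either direction. *AR781* read 6.92, 7.11 and 7.24 in WT leaves and 5.09, 5.38 and 5.50 in WT apices (difference 1.77 ± 0.39, limma adjusted p = 2.42e-04). The difference was 1.43 ± 0.24 in AT3G19030 and 1.04 ± 0.25 in *ATL2*. The median difference was 0.32 over the 47 genes and 0.03 over all genes.

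The 47 genes moved together from array to array within groups. After each gene's group mean was taken away, its correlation with the mean of the other 46 genes had a median of 0.799 over the 12 LD leaf arrays, with a range of -0.263 (*PHI-1*) to 0.969 and 44 genes above 0. Over the 24 apex arrays the median was 0.855, the range 0.202 (AT1G66090) to 0.972, and 47 genes were above 0. Other genes of the table had medians of -0.022 and -0.010. These are descriptions over arrays that were normalised together.

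The array on which the genes were highest was largely shared. Replicate 2 held the highest value of 41 genes in *svp* SD apices and of 38 in *svp* LD apices. Replicate 1 held it for 42 in *flc* LD apices, and replicate 3 for 38 in double-mutant and 38 in WT LD apices. The median standard deviation of the members between replicates was 0.709 in *flc* SD leaves, 0.548 in double-mutant LD leaves and 0.229 in WT SD leaves, where that of all genes was 0.134, 0.136 and 0.142. The family genes left out of the set followed the same arrays, with medians of 8.83, 7.59 and 7.26 in *flc* SD leaves. The part of such a shared array-to-array movement in the genotype differences was not tested.

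**Figure D5:**
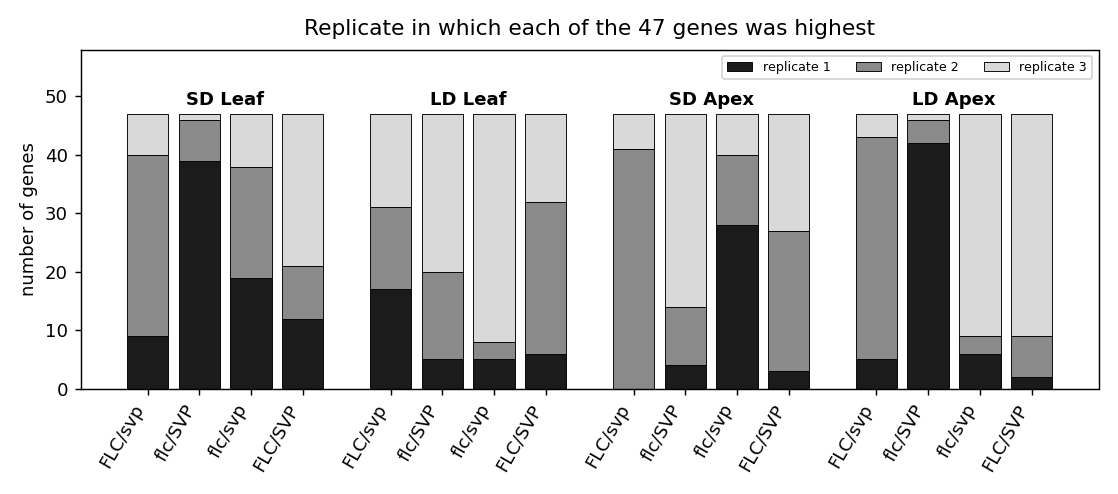
Number of the 47 genes (vertical axis) whose highest value fell on replicate 1, 2 or 3 (shades) in each of the 16 groups (bars, by tissue and day length). In several groups 1 replicate holds most genes, as in *flc* SD leaves (39 in replicate 1) and double-mutant LD leaves (39 in replicate 3).

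Genes of other pathways were counted from lists of known genes, chosen with earlier results of these data known. They were measured over 12 comparisons (3 mutants against WT, and the double mutant against the single-mutant mean, in LD leaves, SD apices and LD apices). Of 20 genes of jasmonate synthesis and turnover, 8 rose in double-mutant LD leaves against WT, as did 0.593% of all genes. In the same leaves 5 were higher than in the single-mutant mean, and none was called elsewhere or lower. Against WT the set leaned the same way, and only against the single-mutant mean was its median of the opposite sign. Without double-mutant replicate 3 these counts were 6 and 3. *OPR3*, an enzyme of jasmonate synthesis, rose by 2.23 ± 0.23 in double-mutant LD leaves (limma adjusted p = 9.28e-09). Of 20 flowering-time genes, *SOC1* rose in all 3 mutants in LD leaves, *SEP3* in *svp* and double mutants and *FT* in double mutants. In these leaves all 3 genes were also higher in the double mutant than in the single-mutant mean. In apices *SOC1* was the only gene of this list called. It rose in double-mutant SD apices and in *flc* and double-mutant LD apices. At both day lengths it was higher in double-mutant apices than in the single-mutant mean. Its largest called change was 2.86 ± 0.13, in double-mutant LD apices against WT (limma adjusted p = 2.62e-18).

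Few genes of the remaining lists were called. Of 20 genes of salicylic acid and basal immunity, *NIMIN1* was lower in double-mutant SD apices, and *PR2*, a defence glucanase gene, was lower in *svp* and double-mutant LD apices. Of 19 genes of flagellin and chitin perception, 1 rose (*LYK4*, a chitin receptor-like kinase gene, 1.08 ± 0.18 in *flc* LD leaves, limma adjusted p = 8.35e-05), and of 19 cold genes 1 rose (*CBF1*, 1.27 ± 0.31 in *flc* LD leaves, adjusted p = 8.21e-03). None of 19 clock genes and none of 17 heat shock genes was called by limma. At an unadjusted p under 0.05, 32 of 228 and 29 of 204 gene-by-comparison values of these 2 lists passed. Between 6.796% and 18.28% of all genes passed in the single comparisons.

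In the RefSeq annotation (TAIR10.1) the median gene length of the members was 1433 bases, against 2132 over the protein-coding genes of the table, and 74.5% (35 of 47) had a single annotated transcript, against 59.6%. By locus, 16 lie on chromosome 1, 5 on chromosome 2, 10 on chromosome 3, 10 on chromosome 4 and 6 on chromosome 5. These are 34%, 10.6%, 21.3%, 21.3% and 12.8% of the members, against 24.9%, 16.5%, 20.4%, 15.4% and 22.5% of all genes. The difference was not tested. Close neighbours were AT1G72920 and AT1G72940, with a correlation of 0.915 over the 48 arrays, and *MYB73* and AT4G37290, with 0.580. These arrays include the SD leaf arrays that chose the genes, and the members move together from array to array. Nothing is therefore read from these values about neighbouring genes.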

How the data were processed

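Transcript levels of 4 genotypes were measured in leaf and apex samples from SDs and LDs, with 3 replicates in each of 16 groups. The authors summarised AGRONOMICS1 probe signals with RMA and deposited log2 expression values for 31004 genes, which were used as deposited. Genome build and RMA version were not given in the sources used here. Symbols came from a RefSeq table (TAIR10.1), which matched 30484 genes. The members and lists were chosen with earlier results of these data known. Following the study's methods, 16 group means were fitted in limma 3.58.1 (R 4.3.3) over all 48 arrays with replicate as a random block (block correlation 0.0336) and eBayes, but p-values were adjusted by Benjamini-Hochberg where the study used Storey's q-values. No filter on dim genes was used. Replicates carrying the same number in different groups did not deviate together strongly: the median correlation of their deviations lay between 0.050 and 0.144 within the 4 settings. Calls needed a change beyond 1 (2-fold) and an adjusted p under 0.01. Named were, by rule, the 12 genes highest in single mutants and the 10 lowest in the double mutant in SD leaves, up to 5 called genes per comparison, up to 4 per role list and those near the thresholds. Other named genes, such as *GPAT3*, AT1G76600, *CAF1a* and AT1G22470, were chosen after their values were seen. The fit was tested on simulated data. Alternatives were a fit without the block, separate fits by tissue, a dim gene filter (mean under 4), median centring, trended robust eBayes, no fold threshold, other member thresholds, the family genes kept, leaving out each array, and, added after seeing the data, leaving out the SD leaf arrays.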

Additional observations from a re-analysis of the deposited data

Results flagged for a closer look

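In a test of the difference itself, AT1G69480 changed differently in LD leaves and LD apices. Its change in *flc* mutants against WT was larger in leaves by 2.46 ± 0.32 on the log2 scale (limma adjusted p = 9.87e-05), and its double mutant lay further below the single-mutant mean in leaves, with a difference of -1.90 ± 0.28 (adjusted p = 5.88e-04). Both calls held in each of the 29 alternatives in which the gene was tested. The gene's mean over all arrays was under 4, so the filter on dim genes left it out. Groups of 3 arrays were not tested for single outlying arrays.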

How the results depend on the processing

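No called direction reversed under any alternative. Without the replicate block, 2 members in place of 4 were called in *svp* LD leaves, and no other count moved by over 1.5 times. Leaving out 1 array at a time gave 1 to 5 calls in *svp* LD leaves, 13 to 19 in *flc* (19 with all arrays), 0 to 3 in double mutants (2) and 1 to 4 below the single-mutant mean (2). It gave 0 to 1 in double-mutant SD apices (1), 0 to 1 for the leaf-apex difference in *svp* mutants (0) and 2 to 4 for WT leaf against apex (3). Separate fits by tissue gave 1 in double-mutant LD leaves, 1 below the single-mutant mean there and 0 in double-mutant SD apices. With dim genes left out (45.1% of genes, 5 members among them), these were 4 in double-mutant LD leaves and 1 below the single-mutant mean, and the leaf-apex differences in *flc* mutants and against the single-mutant mean each fell to 0. Without the SD leaf arrays in the fit, an alternative chosen after seeing the data, double-mutant LD leaves had 4, the comparison with the single-mutant mean 1 and double-mutant SD apices 0, while leaf-apex differences had 1 in *svp*, 4 in *flc* and 1 in double mutants, and WT leaf against apex 6. Member thresholds of 0.75 gave 85 members and those of 1.5 gave 20. Of the latter, 1 was called in *svp*, 9 in *flc* and 0 in double-mutant LD leaves, 1 below the single-mutant mean, 0 in double-mutant SD apices and 0 for WT leaf against apex. Leaving out 1 SD leaf array at a time gave 34 (without *flc* replicate 1) to 56 members, and 25 of the 47 were chosen every time. Of 33 named gene calls, 15 held under every alternative and 18 were lost under at least 1. Apart from the smaller member list, the filter and the omitted arrays, the cause was not tested. The array's signal over background was not analysed here, so it is not known whether low values such as those of AT1G69480 in WT lie at the floor.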
